A study of Mus musculus with 3 samples.

Results

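Trophoblast is the outer lineage of the conceptus, which attaches to the uterus, invades it and later builds the placenta. In the mouse it forms giant cells at the border with the decidua, which copy their DNA without dividing and release placental hormones, and the ectoplacental cone, a cap of smaller progenitor cells above the embryo. The decidua is the maternal stroma, transformed after implantation, that surrounds both. Spots rich in trophoblast transcripts were studied here in uterine sections of mice at pregnancy day 7.5, taken from females that the growth protocol says were kept on normal chow to 8 weeks of age and then mated with stud males. Strain and genotype are not given in the labels, and no animal was treated.

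The measurement was 10x Visium, in which a section lies on a grid of barcoded spots and the RNA of the cells above a spot is counted together. All samples belonged to 1 group, read out in 3 libraries. One library mixed sections of biological replicates 1 and 2 in a single matrix and counted as 1 sample, and the others were replicate 3 and replicate 4. Members were selected on measured expression. A trophoblast-marker spot was a spot with at least 1000 UMIs (unique transcript counts) in which Prl3d1, Prl4a1, Hand1 and Plac1 together reached 1000 CPM (counts scaled to a common total) and in which Apoa1, Apoc2, Cubn, Pou5f1 and Dnmt3b, genes of the yolk sac and embryo, stayed under 1000 CPM together. Prl3d1 encodes placental lactogen I of giant cells, Prl4a1 another trophoblast prolactin-family hormone, Hand1 a transcription factor needed for giant cells, and Plac1 an X-linked placental protein. The rule selected 131 of 3939 spots with enough UMIs, out of 3978 deposited. Replicates 1 and 2 contributed 36 of 1773 (2.03%, with 1.43 to 2.80 as the exact 95% binomial interval), replicate 3 contributed 42 of 1080 (3.89%, 2.82 to 5.22) and replicate 4 contributed 53 of 1086 (4.88%, 3.68 to 6.34). In what follows, values in 3 libraries stand in that order, and the 3808 remaining spots are called other spots. Where levels are said to overlap or not, the summed levels of the libraries are meant and not single spots.

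Trophoblast-marker spots had medians of 7564.5, 29482.5 and 39255 UMIs, against 8223, 26302 and 27806 in other spots. The library of replicates 1 and 2 was thus the shallowest, with 317164 UMIs in its trophoblast-marker spots against 1190359 in replicate 3 and 1982586 in replicate 4, and a gene with no UMI there could still have a level of up to 9.46 CPM (3 counts). Spot barcodes were shared between libraries (780, 676 and 825 in the 3 pairs), as Visium slides carry a fixed barcode set. Spot positions were not used here, so where these spots lay relative to the embryo was not checked. The 9 genes of the rule were left out of every test. A test in these spots compares tissue areas within libraries of 1 group, where fewer cells of a type and less RNA per cell cannot be told apart. Transcripts made by the cells that express the 4 markers are gathered by the rule together with them, so a difference from other spots describes what these areas contain and is not separate evidence of which cells they hold. The p-values say how steady a difference was across libraries. A gene scarce in a class of spots could reach enough counts for a test through the other class alone. Its p-value and call then only describe the spots.

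The level of the 4 markers varied widely among the selected spots. It ran over 1019 to 7742 CPM in replicates 1 and 2 (median 3411), 1201 to 16511 CPM in replicate 3 (median 4712) and 1167 to 9230.2 CPM in replicate 4 (median 2724). Just inside the threshold, 29 selected spots had a median of 1388 CPM and 5 to 77 marker UMIs each. Just outside it, 33 spots with 500 CPM or more had a median of 692 CPM and 2 to 37 marker UMIs. The 4 highest spots, with a median of 12925 CPM, all came from replicate 3.

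The markers were also mixed differently in the 3 libraries. Prl3d1 gave 80.7% of the marker UMIs in replicates 1 and 2, 32.9% in replicate 3 and 35.7% in replicate 4, while Prl4a1 gave 5.41%, 45.3% and 35.3%. Prl3d1 was the most counted marker in all 36 spots of replicates 1 and 2. In replicate 3 it led 19 spots and Prl4a1 led 23. In replicate 4 Prl3d1 led 27 spots, Prl4a1 14, Plac1 7 and Hand1 5. Spots in which Prl3d1 made up most of the marker UMIs are called Prl3d1-led and numbered 36, 11 and 17.

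**Figure D1:**
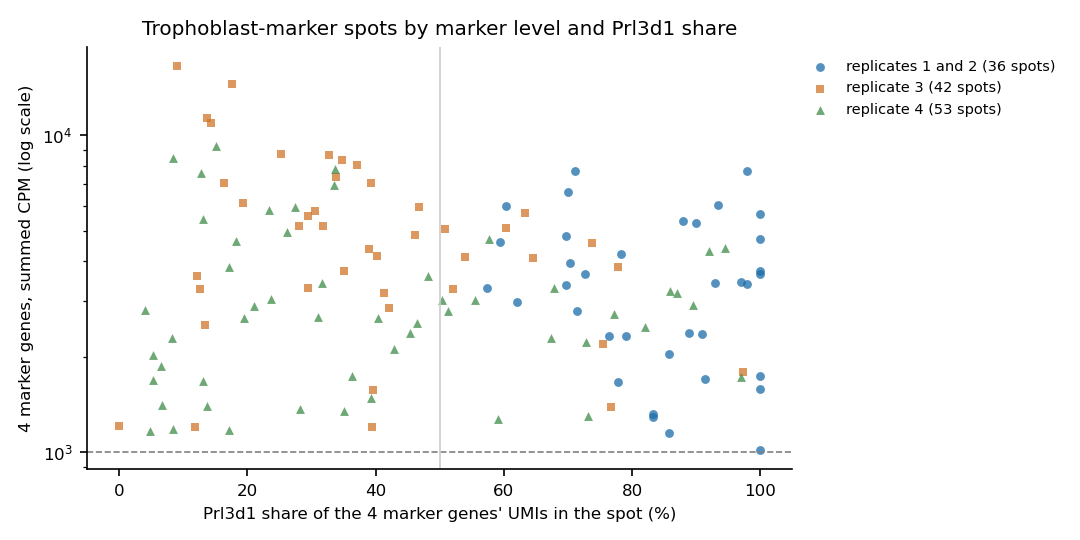
Each point is a trophoblast-marker spot, with the share of its marker UMIs that came from Prl3d1 on the horizontal axis (%) and the summed CPM of the 4 markers on a logarithmic vertical axis. The dashed line is the threshold of 1000 CPM and the grey line a share of 50%. All 36 spots of replicates 1 and 2 lay to the right of the grey line, with 11 of 42 in replicate 3 and 17 of 53 in replicate 4.

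Other trophoblast markers were examined in these spots next to markers of other cells. Cells that express the 4 selecting genes bring such markers with them, so their levels describe the spots and are no separate check of the label. Of 18 further trophoblast markers 12 had enough counts to be tested, and 11 of these were higher than in other spots, namely Prl7a1, Tpbpa, Tfap2c, Gata2, Rhox6, Rhox9, Ascl2, Cts7, Krt7, Krt8 and Krt18. The exception was Gata3, a trophoblast transcription factor gene, at 12.6, 14.3 and 23.2 CPM in trophoblast-marker spots and 20.7, 24.8 and 22.3 CPM in other spots (log2 fold change -0.27 ± 0.25, adjusted p = 0.41). Across all genes, 26.0% of 13126 were called (9.52% higher and 16.4% lower), which required an adjusted p below 0.05 by edgeR's quasi-likelihood test and a log2 fold change of 1 or more in either direction. The median log2 fold change of all genes was -0.10, and fold changes are given ± SE. These markers together stood at 5855, 5086 and 5184 CPM in trophoblast-marker spots, against 262, 248 and 340 CPM in other spots. Gcm1, Syna and Synb of syncytiotrophoblast were at 0 UMIs in every trophoblast-marker spot. So were the placental cathepsin genes Ctsq, Ctsj, Ctsm, Cts3 and Cts6 and the prolactin-family genes Prl8a6 and Prl8a8. Cdx2, Elf5 and Esrrb, transcription factor genes of trophoblast stem cells, had too few counts for the test. Cdx2 stood at 0, 4.20 and 15.6 CPM in trophoblast-marker spots and 0.241, 0.153 and 0.429 CPM in other spots, and Elf5 at 0, 8.40 and 14.1 CPM against 0.0603, 0.0767 and 0.644 CPM. Neither had a UMI in the trophoblast-marker spots of the shallow library, and both lay above other spots in replicates 3 and 4.

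Transcripts of the Y chromosome give a measure of conceptus tissue that the rule did not use, since the mother carries no Y chromosome and male conceptuses do. Ddx3y, Eif2s3y, Kdm5d and Uty together stood at 37.8 CPM (exact 95% Poisson interval 19.6 to 66.1), 26.9 CPM (18.4 to 38.0) and 20.2 CPM (14.4 to 27.5) in trophoblast-marker spots. In other spots, leaving out embryo-gated spots, they stood at 0.667, 0.230 and 0.438 CPM. Embryo-gated spots, in which the 5 yolk sac and embryo genes reached 1000 CPM, had 63.8 CPM (23.4 to 139) in replicates 1 and 2 and 61.7 CPM (43.2 to 85.4) in replicate 4, while replicate 3 had no such spot.

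The intervals of trophoblast-marker spots did not overlap those of other spots in any library. They overlapped those of embryo-gated spots in replicates 1 and 2 and lay below them in replicate 4. Near the marker threshold the separation was less clear. With all libraries pooled, the 29 spots just inside it had 10.3 CPM (4.46 to 20.4). The 33 spots just outside it, which count as other spots, had 6.09 CPM (1.66 to 15.6), with overlapping intervals. In spots rich in smooth muscle genes (Myh11, Cnn1 and Actg2), which should hold no conceptus tissue, the level was 0.476 CPM in replicates 1 and 2, 0.587 CPM in replicate 3 and 0 in replicate 4, where 3 counts would be 1.11 CPM. Intervals and limits of this kind cover counting error only. Counts of these 4 genes were low in other spots, and they passed the count filter, where they did, through the spots in which they were high, so they are given as levels with no test. At least 1 UMI of these genes was seen in 11 of 36 spots of replicates 1 and 2 (30.6%), 25 of 42 in replicate 3 (59.5%) and 28 of 53 in replicate 4 (52.8%), at the depths given above. How many conceptuses the sections held, and of which sex, is not given in the labels.

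**Figure D2:**
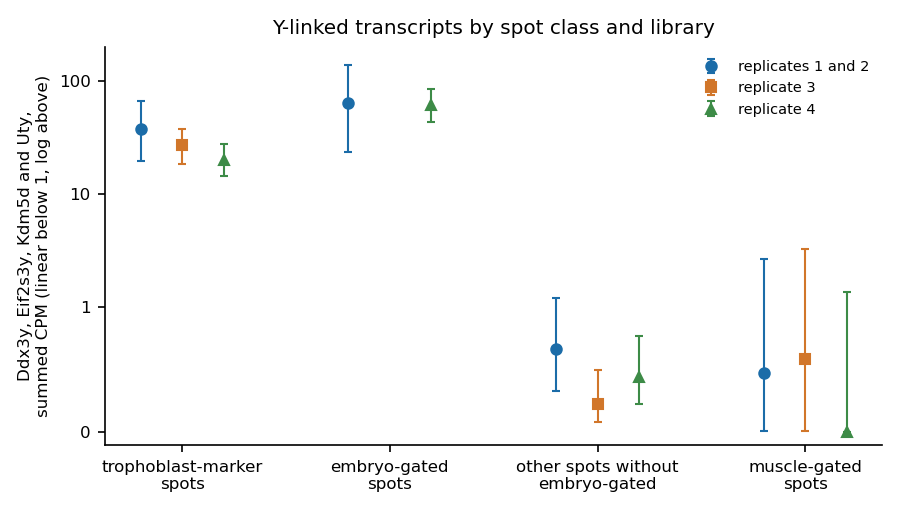
Summed CPM of 4 Y-linked genes (vertical axis, linear below 1 and logarithmic above) in 4 classes of spots, with a point for each library and exact 95% Poisson intervals as bars. Trophoblast-marker spots stood at 20.2 to 37.8 CPM, against 0.230 to 0.667 CPM in other spots without embryo-gated spots. Replicate 3 had no embryo-gated spot.

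Hormones of the prolactin family, which sit in a cluster on chromosome 13 and are made by trophoblast and decidua at different stages, were at high levels in these spots. Leaving out Prl3d2 and Prl3d3, near-copies of the selecting gene Prl3d1, 11 of 18 trophoblast members passed the count filter, and these 11 were higher than in other spots, with a median log2 fold change of 4.43. The members that passed were in part those raised by the chosen spots themselves, so this count is not a test of the family. The family with its near-copies stood at 2243 CPM in the 29 spots just inside it and 3291 CPM in the 33 spots just outside it. Prl7a1 had 2258, 1752 and 914 CPM in trophoblast-marker spots and 22.4, 17.6 and 17.8 CPM in other spots (log2 fold change 6.36 ± 0.21, adjusted p = 5.6e-15). It was lowest in replicate 4, and above the summed level of other spots in every library. Among single trophoblast-marker spots it ran over 431 to 6694 CPM in replicates 1 and 2 (median 1958), 0 to 4479 CPM in replicate 3 (median 1569) and 24.2 to 4314 CPM in replicate 4 (median 627). With each spot thinned to 3000 UMIs, Prl7a1 was detected in 97.1%, 95.2% and 77.4% of trophoblast-marker spots, against 4.59%, 3.76% and 3.20% of other spots. In muscle-rich spots it was detected in 3.47%, 5.69% and 0.578% after thinning, and the source of these counts was not tested.

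Prl2a1 had the largest fold change of the genes named by size, with 75.7, 425 and 547 CPM in trophoblast-marker spots and 1.57, 2.95 and 2.75 CPM in other spots (log2 fold change 7.14 ± 0.28, adjusted p = 7.6e-14). Its level in replicates 1 and 2 was well below that in the other libraries, and all 3 lay above other spots. Prl5a1 was more even, at 334, 557 and 373 CPM against 4.95, 7.01 and 5.68 CPM (log2 fold change 6.19 ± 0.18, adjusted p = 1.7e-15), as was Prl8a9, at 1974, 1377 and 1309 CPM against 92.3, 52.6 and 199 CPM (log2 fold change 3.99 ± 0.26, adjusted p = 1.6e-10). Prl6a1 (3.63 ± 0.19), Prl8a1 (4.43 ± 0.37), Prl7d1 (3.70 ± 0.32), Prl7c1 (5.60 ± 0.60) and Prl7a2 (1.96 ± 0.45) also rose, Prl7a2 neither without replicate 3 nor without library as a block. Prl2c5 (3.62 ± 0.21) and Prl2c3 (5.51 ± 0.45) code for proliferins, growth-promoting hormones of giant cells, and near-identical copies can share their reads. Prl3d2 and Prl3d3 are given only as levels. Prl3d2 had 709, 192 and 186 CPM against 3.92, 1.11 and 4.72 CPM in other spots, and Prl3d3 had 517, 119 and 99.4 CPM against 3.38, 0.958 and 3.75 CPM. Prl3b1, placental lactogen II of later pregnancy, was at 0, 0 and 1.51 CPM.

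The decidual hormone Prl8a2, by contrast, did not separate the spots. It had 44762, 7458 and 10456 CPM in trophoblast-marker spots and 26861, 7537 and 13644 CPM in other spots (log2 fold change 0.15 ± 0.17, adjusted p = 0.52). It was high in both kinds of spot, and highest in replicates 1 and 2. Prl3c1, another decidual member, stood at 2185, 99.1 and 584 CPM against 1787, 218 and 2129 CPM (log2 fold change -0.87 ± 0.25, adjusted p = 0.0076), which fell short of the fold required.

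The sequences just upstream of 3 of these hormone genes are shown because their levels differed inside the trophoblast-marker spots as described further on: Prl7a1 was higher in Prl3d1-led spots, and Prl2a1 and Prl7d1 were lower there. Each line holds the 250 bases before the start annotated by RefSeq (GRCm38.p6), 5′ to 3′ on the gene's strand: chr13:27642494-27642743 on the minus strand for Prl7a1, chr13:27801405-27801654 on the plus strand for Prl2a1 and chr13:27716738-27716987 on the minus strand for Prl7d1, at the first of 2 annotated starts. Capitals mark matches on either strand to the GATA factor motifs AGATAA and its variant AGATAG as well as TGATAA and its variant TGATAG, the AP-1 motif TGANTCA, the TEAD factor motif GGAATG and the TATA box forms TATAAA and, added after these sequences were seen, TATATA. No 2 matches overlapped.
Prl7a1: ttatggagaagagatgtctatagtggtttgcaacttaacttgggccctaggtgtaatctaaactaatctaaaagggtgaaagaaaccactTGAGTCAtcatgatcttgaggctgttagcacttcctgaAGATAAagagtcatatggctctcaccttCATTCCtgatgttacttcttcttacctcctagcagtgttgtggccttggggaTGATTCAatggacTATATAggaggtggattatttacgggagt
Prl2a1: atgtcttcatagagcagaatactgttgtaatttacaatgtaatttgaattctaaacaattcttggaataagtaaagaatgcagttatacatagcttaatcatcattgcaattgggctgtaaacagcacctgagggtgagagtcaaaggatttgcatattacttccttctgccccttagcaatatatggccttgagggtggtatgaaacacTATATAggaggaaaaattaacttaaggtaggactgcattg
Prl7d1: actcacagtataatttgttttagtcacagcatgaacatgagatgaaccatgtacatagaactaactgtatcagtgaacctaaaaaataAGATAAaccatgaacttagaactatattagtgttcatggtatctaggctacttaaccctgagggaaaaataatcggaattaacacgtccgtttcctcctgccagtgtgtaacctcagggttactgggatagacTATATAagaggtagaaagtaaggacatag
TATATA began 29, 40 and 29 bases before the start in Prl7a1, Prl2a1 and Prl7d1. Prl7a1 held 2 AP-1 matches, 1 GATA match and 1 TEAD match, Prl7d1 1 GATA match and neither of the others, and Prl2a1 none of the 3. Among 27025 RefSeq promoters of the same length 27.1% held a GATA match, 6.87% an AP-1 match, 12.6% a TEAD match and 16.4% a TATA match. A match describes letters only and is not evidence of a bound factor.

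Other products secreted by trophoblast rose with the hormones. The 8 placental cathepsins, lysosomal proteases found in rodent placenta, were represented by Cts7 and Cts8, the only members with enough counts. Cts7 (chr13:61352461-61358197, minus strand, protein coding) had 1229.7, 606 and 1539 CPM in trophoblast-marker spots and 33.1, 40.6 and 46.0 CPM in other spots (log2 fold change 4.77 ± 0.22, adjusted p = 6.9e-13), and Cts8 had 331, 201 and 544 CPM against 11.6, 14.6 and 16.8 CPM (log2 fold change 4.59 ± 0.21, adjusted p = 7.8e-13). Both were lowest in replicate 3, and their library sums did not overlap those of other spots. Single trophoblast-marker spots went down to 0 CPM of Cts7 in replicates 1 and 2 and in replicate 3. The cathepsin list stood at 1448 CPM in the spots just inside the threshold and 1487 CPM in those just outside it.

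Of 21 pregnancy-specific glycoprotein and Ceacam genes, many of which code for secreted placental proteins, 6 had enough counts to be tested and these 6 were higher (median 4.31). They passed the count filter in part through the chosen spots, as the hormones did, so the count is no test of the list, which stood at 3297 CPM just inside the threshold and 3346 CPM just outside it. Ceacam15 had 2217, 866 and 1812 CPM against 70.6, 71.7 and 104 CPM (log2 fold change 4.26 ± 0.21, adjusted p = 1.4e-12), and Psg29 had 804, 331 and 955 CPM against 24.2, 14.8 and 33.4 CPM (log2 fold change 4.83 ± 0.17, adjusted p = 1.3e-14). Ceacam9 was uneven, with 227, 139 and 2329 CPM in trophoblast-marker spots and 4.10, 21.6 and 15.2 CPM in other spots (log2 fold change 5.36 ± 0.57, adjusted p = 1.9e-07). Replicate 4 held by far the most, and the lowest library still lay above other spots. Psg22 had 438, 20.2 and 292 CPM against 13.0, 1.76 and 18.3 CPM (log2 fold change 4.35 ± 0.22, adjusted p = 2.5e-12), with little in replicate 3.

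Regulators of the trophoblast lineage changed less uniformly. Of 14 giant cell regulators tested 8 were higher and 1, the inhibitor Id1, was lower (median 1.19). They included Sfmbt2, an imprinted Polycomb-group gene needed for trophoblast (5.13 ± 0.27), Gata2, which activates placental lactogen genes (1.45 ± 0.16), the leukemia inhibitory factor receptor gene Lifr (1.86 ± 0.18) and Cited2 (1.86 ± 0.15). Sfmbt2 had 37.8, 68.0 and 56.0 CPM in trophoblast-marker spots and 1.09, 1.42 and 2.25 CPM in other spots, with no overlap.

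Of 10 tested regulators and markers of stem cells and ectoplacental cone 4 were higher, Tfap2c, Ascl2, Ets2 and Tpbpa, and Id2 was lower (median 0.57). Tfap2c, a core trophoblast transcription factor, had 183, 248 and 242 CPM against 19.1, 17.4 and 23.5 CPM (log2 fold change 3.55 ± 0.17, adjusted p = 7.8e-13). Ascl2, which keeps progenitors of the ectoplacental cone, had 0, 41.2 and 139 CPM against 0.905, 1.84 and 2.07 CPM (log2 fold change 5.24 ± 0.38, adjusted p = 7.6e-10). It had no UMI in replicates 1 and 2 and was high in replicate 4, so the ranges of the 2 kinds of spot overlapped across libraries. Eomes, shared by trophoblast stem cells and natural killer cells, stood at 28.4, 4.20 and 7.57 CPM and 4.95, 14.5 and 9.08 CPM (log2 fold change -0.08 ± 0.48, adjusted p = 0.92), and Tead4 at 136, 99.97 and 95.3 CPM and 68.5, 56.1 and 71.6 CPM (log2 fold change 0.76 ± 0.16, adjusted p = 5.2e-04), under the required fold.

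Imprinted genes moved in both directions, 7 of 17 higher and 4 lower (median 0.67). The imprinted noncoding RNA H19 (chr7:142575529-142578143, minus strand) had 2264, 2187 and 1650.4 CPM in trophoblast-marker spots and 49.6, 29.4 and 80.5 CPM in other spots (log2 fold change 5.395 ± 0.26, adjusted p = 1.1e-12). Igf2, the growth factor gene next to it, had 119.8, 118 and 97.9 CPM against 4.52, 2.87 and 6.47 CPM (log2 fold change 4.65 ± 0.23, adjusted p = 1.6e-12). Phlda2 (5.32 ± 0.34) and Cdkn1c (4.02 ± 0.25), imprinted genes that restrain placental growth, rose too. Phlda2 had 82.0, 259.6 and 188 CPM against 2.71, 2.22 and 10.3 CPM, lowest in replicates 1 and 2 and without overlap. Peg10, an imprinted gene of retrotransposon origin needed for placenta, had 0, 47.04 and 87.8 CPM against 0.483, 0.843 and 4.15 CPM (log2 fold change 4.84 ± 0.33, adjusted p = 3.2e-10), with no UMI in the shallow library and so an overlap across libraries. Peg3 (2.72 ± 0.36) and Slc38a4 (3.79 ± 0.34) were the others that rose. Those that fell were Grb10 (-1.84 ± 0.18), Mest (-1.42 ± 0.18), Dcn (-3.13 ± 0.23) and Tspan32, which had no UMI in trophoblast-marker spots (at least 1.65-fold lower against 3 counts over the group, and not called without replicate 3, without replicates 1 and 2 or by DESeq2).

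Of the 20 genes named for the largest rises 6 lie on the X chromosome: Ldoc1, Fthl17a, Trap1a, Rhox9, Rhox6 and Fmr1nb. Ldoc1, derived from a retrotransposon, had 148, 250.3 and 206 CPM against 2.41, 1.69 and 3.29 CPM (log2 fold change 6.43 ± 0.23, adjusted p = 1.7e-14). Trap1a had 221, 266 and 254 CPM against 2.59, 2.57 and 5.54 CPM (log2 fold change 6.19 ± 0.21, adjusted p = 9.9e-15). Both were higher in every library, without overlap. The homeobox genes Rhox5, Rhox6 and Rhox9 also rose, Rhox6 with 214, 245 and 83.7 CPM against 2.77, 1.99 and 2.90 CPM (log2 fold change 6.03 ± 0.27, adjusted p = 5.4e-13). Across the X chromosome 65 of 436 tested genes were higher (14.9%) and 86 were lower (19.7%), against 9.52% higher and 16.4% lower of all genes.

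The remaining large rises were spread over several functions. Plet1 (chr9:50494525-50505482, plus strand, protein coding), a surface protein of trophoblast progenitors, had 1179, 1589 and 1331 CPM in trophoblast-marker spots and 23.5, 20.97 and 27.9 CPM in other spots (log2 fold change 5.86 ± 0.19, adjusted p = 5.6e-15). After thinning it was detected in 85.7%, 92.9% and 94.3% of trophoblast-marker spots, against 3.69%, 5.31% and 4.66% of other spots. Sfn (5.60 ± 0.21) codes for an epithelial 14-3-3 protein, Slc38a3 (5.59 ± 0.32) for a glutamine transporter and Utf1 (5.62 ± 0.41) for a chromatin factor also active in the epiblast. Nppb, coding for a natriuretic peptide, differed between libraries, with 293, 79.8 and 24.2 CPM against 2.11, 0.690 and 1.25 CPM (log2 fold change 6.17 ± 0.35, adjusted p = 1.5e-11). Pate11 rested mainly on replicates 1 and 2, with 331, 1.68 and 35.3 CPM against 1.99, 0.0383 and 1.36 CPM (log2 fold change 6.09 ± 0.42, adjusted p = 2.5e-10), and Doxl1 had 230.2, 18.5 and 91.8 CPM against 1.87, 0.498 and 3.25 CPM (log2 fold change 5.63 ± 0.30, adjusted p = 5.5e-12). Replicates 1 and 2 were the highest for all 3 of these genes. The replicate 3 value of Pate11 lay within the range of other spots.

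**Figure D3:**
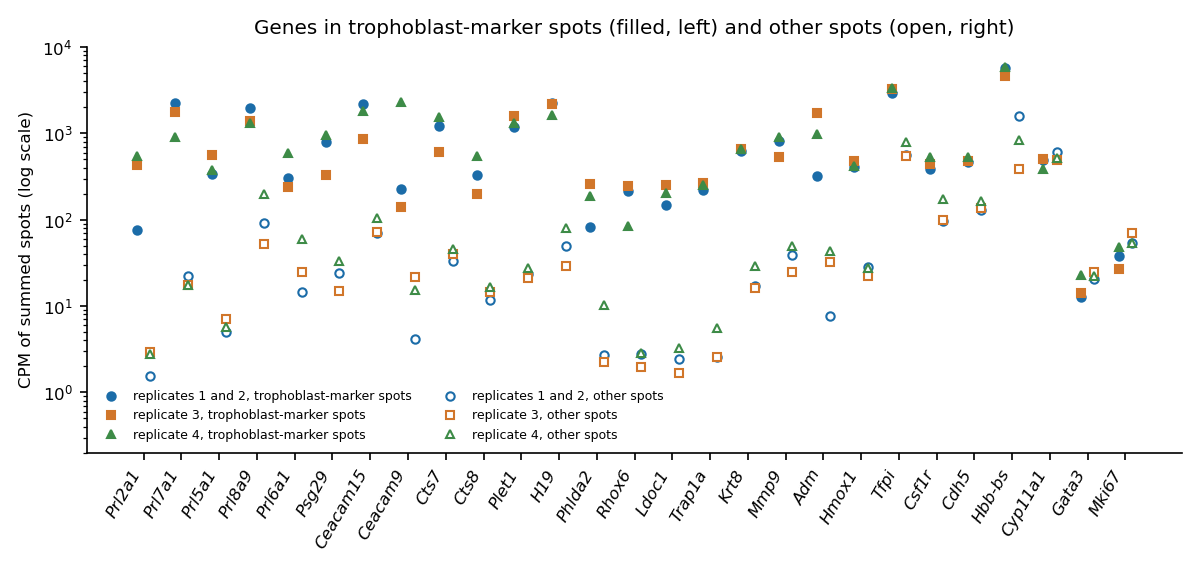
CPM of summed spots on a logarithmic axis for 27 genes, in trophoblast-marker spots (filled, left) and other spots (open, right), with a point for each library. Prl7a1, Plet1 and Krt8 lay more than an order of magnitude above other spots in all 3 libraries, while Cyp11a1 and Gata3 had overlapping levels.

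Genes of epithelia were mostly higher in trophoblast-marker spots. Of 17 keratin and junction genes 11 were higher and 1, Cldn3, was lower (median 1.97). Krt8, a keratin of simple epithelia including trophoblast, had 621, 662 and 661 CPM against 17.0, 16.4 and 28.9 CPM (log2 fold change 5.04 ± 0.18, adjusted p = 1.7e-14), almost the same in every library. Krt18, its partner, had 747, 712 and 753 CPM against 42.4, 35.1 and 82.7 CPM (log2 fold change 3.92 ± 0.19, adjusted p = 1.6e-12), and the desmosome genes Dsp (5.03 ± 0.22) and Pkp2 (3.47 ± 0.19) rose with them. Cdh1, the E-cadherin gene, stood at 3.15, 0.840 and 6.56 CPM against 2.96, 6.09 and 6.83 CPM (log2 fold change -0.55 ± 0.53, adjusted p = 0.43). Gland genes were lower in these spots for 5 of 6 tested, among them Prss28 (-6.39 ± 0.42) and Prss29 (-5.78 ± 0.32), with Prss28 at 0, 2.52 and 0.504 CPM against 189, 37.6 and 134 CPM. The gland list summed to 221, 48.7 and 167 CPM in trophoblast-marker spots, against 1108, 421 and 1135 CPM in other spots, and Ltf was at 0.

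Genes of invasion moved in both directions, 10 of 22 higher and 5 lower (median 0.44). Mmp9, a secreted protease that digests basement membrane, had 819.8, 526 and 896 CPM in trophoblast-marker spots and 39.0, 24.6 and 49.9 CPM in other spots (log2 fold change 4.36 ± 0.16, adjusted p = 1.7e-14). Mmp2, a related protease of stroma, had 9.46, 5.04 and 3.53 CPM against 154, 133 and 139 CPM (log2 fold change -4.81 ± 0.25, adjusted p = 4.8e-12). The 2 proteases thus lay on opposite sides in every library. The inhibitor gene Timp3 rose (2.43 ± 0.16) while Timp1 (-2.37 ± 0.22) and Timp2 (-2.90 ± 0.18) fell. Serpinb9e (4.06 ± 0.17), Serpinb9f (4.99 ± 0.46) and Serpinb9g (4.52 ± 0.18), members of a serpin family that in part blocks granzymes, were higher, while Serpinb9b had 407, 399.9 and 404 CPM against 359, 417 and 434 CPM (log2 fold change 0.04 ± 0.14, adjusted p = 0.86). The general lysosomal cathepsin genes Ctsb (1.73 ± 0.15) and Ctsl (1.10 ± 0.14) rose as well.

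Vascular and coagulation genes included 7 higher and 4 lower of 19 tested (median 0.16). Adm, coding for the vessel-relaxing peptide adrenomedullin, had 325, 1699 and 973 CPM in trophoblast-marker spots and 7.66, 32.7 and 43.2 CPM in other spots (log2 fold change 5.22 ± 0.21, adjusted p = 8.8e-14). It was low in replicates 1 and 2 and highest in replicate 3 in the trophoblast-marker spots. Hmox1, whose enzyme breaks down heme, had 409.9, 474 and 423 CPM against 28.2, 22.3 and 27.2 CPM (log2 fold change 4.13 ± 0.17, adjusted p = 9.0e-14). Tfpi, the inhibitor of the tissue factor pathway, had 2926, 3255 and 3363 CPM against 564, 551 and 788 CPM (log2 fold change 2.38 ± 0.15, adjusted p = 8.8e-11). The anticoagulant receptor genes Procr (1.98 ± 0.16) and Thbd (1.04 ± 0.15, not called without replicate 3) rose, and so did F3, the tissue factor gene itself (1.44 ± 0.20), and Pgf, a vessel growth factor gene (2.05 ± 0.27). Vegfa (0.16 ± 0.20, adjusted p = 0.57) and Flt1 (0.05 ± 0.24, adjusted p = 0.89) did not pass. Angpt1, from perivascular cells in other tissues, had no UMI in trophoblast-marker spots, at least 3.99-fold lower against 3 counts over the group and not called without replicate 4.

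Adult globin transcripts, which mark definitive red cells such as those of the mother, were higher in the same spots. Hbb-bs had 5716, 4635 and 5905 CPM in trophoblast-marker spots and 1589.6, 390.0 and 834 CPM in other spots (log2 fold change 2.79 ± 0.24, adjusted p = 6.1e-09), and all 4 adult globins rose (median 2.69), with near-identical copies sharing reads. The whole list summed to 9374, 7733 and 9619 CPM in trophoblast-marker spots, against 2672, 658 and 1442 CPM in other spots. Among single trophoblast-marker spots Hbb-bs ran from 203 to 39668 CPM in replicates 1 and 2, 48.4 to 47374 CPM in replicate 3 and 305 to 26930.1 CPM in replicate 4. The level thus varied widely from spot to spot. The embryonic globins Hbb-y, Hbb-bh1 and Hba-x were at 0 UMIs in all 131 spots. The part of blood in the vascular differences was not tested.

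Endothelial markers gave no single direction, with 2 higher and 4 lower of 10 tested (median -0.31). Cdh5, the endothelial cadherin gene, had 463, 485 and 534 CPM in trophoblast-marker spots and 131, 137 and 163 CPM in other spots (log2 fold change 1.82 ± 0.14, adjusted p = 2.0e-09), and Esam rose too (1.12 ± 0.15). Emcn, Plvap, Tek and Sox18, other endothelial genes, were lower (Sox18 not without replicate 3), Emcn with 85.1, 43.7 and 27.7 CPM against 148, 121 and 104 CPM (log2 fold change -1.41 ± 0.18, adjusted p = 2.9e-06). The list summed to 1201, 1457 and 1271 CPM against 883, 1015 and 902 CPM. Macrophage markers split too, with a median of -2.60. Csf1r, the receptor gene for colony stimulating factor 1 and known from macrophages and trophoblast, had 382, 440.2 and 536 CPM against 95.8, 99.7 and 173 CPM (log2 fold change 1.96 ± 0.15, adjusted p = 1.5e-09), and Cd68 had 82.0, 108 and 125 CPM against 34.9, 42.9 and 62.2 CPM (log2 fold change 1.23 ± 0.16, adjusted p = 2.0e-06). Another 8 of the 11 fell, C1qb to 12.6, 1.68 and 3.53 CPM against 45.3, 75.4 and 59.6 CPM (log2 fold change -3.98 ± 0.34, adjusted p = 9.0e-09), and Mrc1 was at 0, 0.840 and 0.504 CPM. The list of 11 summed to 586, 671 and 766 CPM in trophoblast-marker spots and 697, 1145 and 890 CPM in other spots.

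Most genes of natural killer cells, smooth muscle, stromal matrix and decidua were lower in trophoblast-marker spots. Of 13 tested natural killer cell genes all 13 were lower (median -4.21, and -4.13 with the genes at 0 put at their limit). Gzmd, a granzyme of uterine natural killer cells that can share reads with its neighbours, had 0, 166 and 28.8 CPM against 318, 1992 and 878 CPM (log2 fold change -4.28 ± 0.28, adjusted p = 1.3e-10). Ncr1, their receptor gene, had no UMI in any of the 131 spots, against 4.04, 22.4 and 5.61 CPM in other spots (at least 13.3-fold lower against 3 counts over the group, not called without library as a block). Replicate 3 held the most Gzmd RNA in both kinds of spot.

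All 8 smooth muscle genes fell (median -5.57), Myh11 with 9.46, 0.840 and 2.52 CPM against 434, 196 and 258 CPM (log2 fold change -6.53 ± 0.28, adjusted p = 1.8e-13), although the intermediate filament gene Des, which decidual cells also express, kept 429, 624 and 1125 CPM against 1774, 1255 and 1467 CPM (log2 fold change -1.06 ± 0.22, adjusted p = 6.2e-04) and was not called without replicates 1 and 2 or without library as a block. All 13 stromal matrix genes fell (median -4.27), Col1a2 with 34.7, 24.4 and 28.2 CPM against 1262, 965 and 1064 CPM (log2 fold change -5.19 ± 0.19, adjusted p = 1.7e-14). Of 20 decidual genes 14 fell and none rose (median -1.48), among them Dio3, which inactivates thyroid hormone (-4.32 ± 0.21), Wnt6 (-3.85 ± 0.28), Bmp2 (-1.83 ± 0.17), Hand2 (-1.21 ± 0.15) and Pgr, the progesterone receptor gene (-1.43 ± 0.22). Dio3 had 44.1, 18.5 and 36.8 CPM against 599, 644 and 655 CPM. The decidual list, which includes Prl8a2, summed to 52755, 11782 and 16133 CPM against 37874, 15177 and 24583 CPM. Its sum was thus higher in replicates 1 and 2 and lower in the other libraries. Cryab, a small heat shock protein gene of the decidua, did not pass, with 4222, 2687 and 3442 CPM against 3826, 2554 and 3607 CPM (log2 fold change 0.09 ± 0.14, adjusted p = 0.66). The natriuretic peptide gene Nppa, the scavenger receptor gene Scara3 and Sult1a1, Ccdc8 and Lrrc17 had no UMI in trophoblast-marker spots and were at least 13.5-, 16.01-, 15.3-, 14.0- and 11.7-fold lower against 3 counts over the group.

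**Figure D4:**
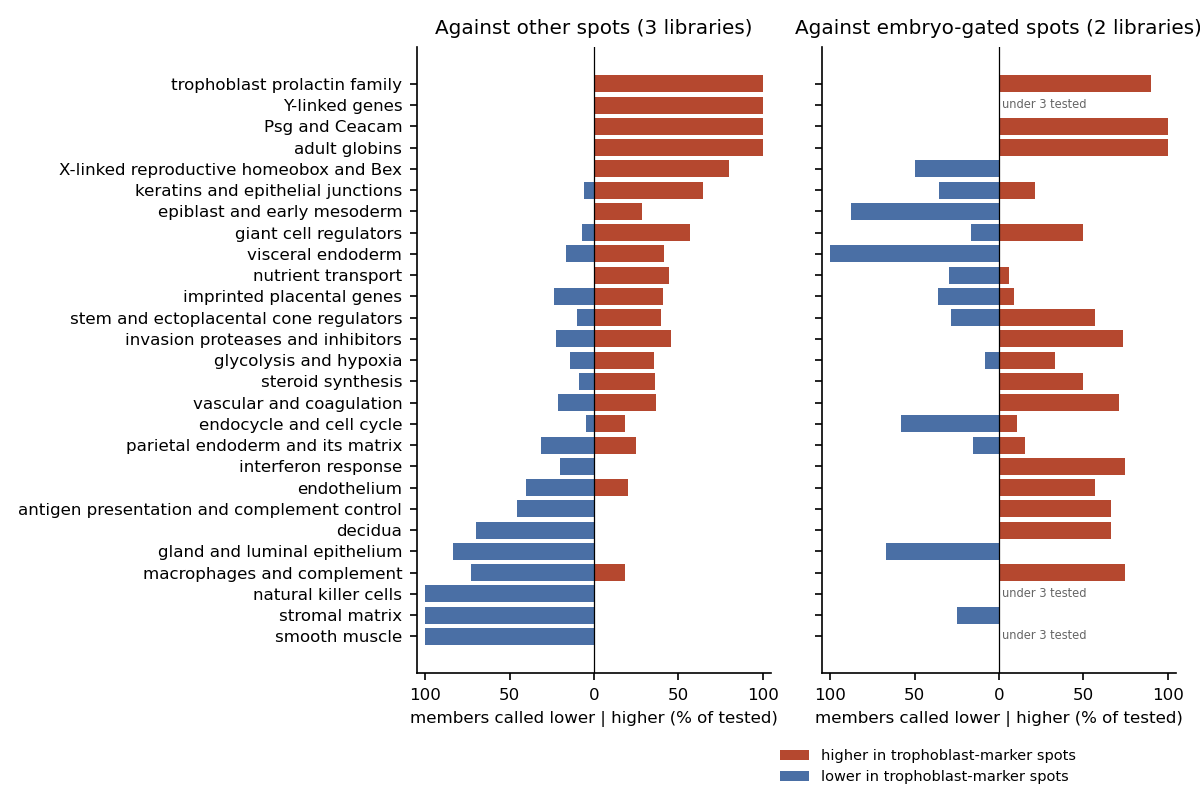
Share of each gene list's tested members called lower (left bars) or higher (right bars) in trophoblast-marker spots, against other spots (left panel) and against embryo-gated spots (right panel). All tested natural killer cell, stromal matrix and smooth muscle genes were lower against other spots, and all tested visceral endoderm genes were lower against embryo-gated spots. Lists with fewer than 3 tested members are marked, and the prolactin list includes the near-copies of Prl3d1.

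Genes of metabolism and the cell cycle gave smaller differences. Of 18 nutrient transport and storage genes 8 were higher and none lower (median 1.08), with the fatty acid carriers Fabp3 (4.09 ± 0.23) and Fabp5 (1.64 ± 0.15) and the lactate transporters Slc16a1 (2.29 ± 0.17) and Slc16a3 (2.76 ± 0.23). Slc2a1, the glucose transporter gene, stood at 136, 250.3 and 531 CPM against 248, 152 and 238 CPM (log2 fold change 0.53 ± 0.25, adjusted p = 0.095), below other spots in replicates 1 and 2 and above them in the other libraries. In steroid synthesis 4 of 11 rose and 1 fell (median 0.31). Cyp17a1, needed for androgen synthesis, had 15.8, 18.5 and 5.04 CPM against 0.121, 0.230 and 0.143 CPM. Cyp17a1 passed the count filter only through the trophoblast-marker spots, so it is given as a level with no test. Cyp11a1, which starts steroid synthesis from cholesterol, had 486, 508 and 389 CPM against 604, 486 and 519.9 CPM (log2 fold change -0.18 ± 0.15, adjusted p = 0.35), with overlapping ranges.

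Of 22 cell cycle genes 4 were higher, namely the cyclin E genes Ccne1 (1.87 ± 0.19) and Ccne2 (1.48 ± 0.29), the licensing factor gene Cdt1 (1.26 ± 0.17) and its inhibitor gene Gmnn (1.54 ± 0.15). Ccne1 had 37.8, 74.8 and 67.6 CPM against 17.7, 18.6 and 17.8 CPM, and Gmnn had 129, 118 and 122 CPM against 43.3, 44.5 and 42.4 CPM. The library sums of neither gene overlapped those of other spots. Ccnd1 was lower (-1.01 ± 0.21), but not without replicate 3 or without replicate 4. The replication helicase genes Mcm2 (0.02 ± 0.21), Mcm3 (0.16 ± 0.18), Mcm5 (0.54 ± 0.17) and Mcm6 (0.13 ± 0.17) were not called. Genes of mitosis were not called either, with Mki67 at 37.8, 26.9 and 48.4 CPM against 54.2, 69.6 and 53.8 CPM (log2 fold change -0.58 ± 0.22, adjusted p = 0.038), Top2a at -0.36 ± 0.17 (adjusted p = 0.093) and Cdk1 at 0.30 ± 0.15 (adjusted p = 0.13). The median of the list was 0.14.

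A second comparison set the trophoblast-marker spots against embryo-gated spots, 36 against 19 in replicates 1 and 2 and 53 against 23 in replicate 4. Here values stand in the order replicates 1 and 2, replicate 4. Of the 42 embryo-gated spots 13 also reached the marker threshold (9 and 4), so both classes held the markers. Of 5889 genes tested 22.6% were called, 13.2% higher and 9.41% lower in trophoblast-marker spots. Tpbpa, made in the ectoplacental cone, had 56.8 and 228 CPM in trophoblast-marker spots and 0 and 8.57 CPM in embryo-gated spots. Tpbpa passed the count filter only through the trophoblast-marker spots, so it is given as a level with no test. Ceacam9 had 227 and 2329 CPM against 42.5 and 32.6 CPM (log2 fold change 5.89 ± 0.43, adjusted p = 6.6e-06), and Prl2a1 had 75.7 and 547 CPM against 42.5 and 15.4 CPM (log2 fold change 4.62 ± 0.53, adjusted p = 1.2e-04), which DESeq2 did not call. Each was higher in both libraries. Prl7a1 differed less, with 2258 and 914 CPM against 712 and 286 CPM (log2 fold change 1.84 ± 0.15, adjusted p = 1.2e-05).

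DESeq2 called 300 genes and the fit without library as a block 806, against 1330 here. Without the near-copies of Prl3d1, 8 of 18 trophoblast prolactin-family genes passed the count filter and 7 of these were higher (median 2.18, against 0.01 for all genes). The marker rule itself favours this direction, and they passed the filter in part through the chosen spots, so the count is only a description. Invasion genes were higher for 11 of 15 (median 1.56), among them Serpinb9g (3.56 ± 0.36), Mmp9 (1.55 ± 0.18) and Timp3 (1.56 ± 0.16). Vascular genes were higher for 10 of 14 (median 1.62), such as Hmox1 (2.38 ± 0.23), Adm (1.89 ± 0.21) and Tfpi (1.63 ± 0.12). Decidual genes were also higher, 10 of 15 (median 1.16), with Cryab at 4222 and 3442 CPM against 1499 and 1375 CPM (log2 fold change 1.57 ± 0.12, adjusted p = 1.1e-05), and so were all 4 adult globins, with Hbb-bs at 5716 and 5905 CPM against 1679 and 2309 CPM (log2 fold change 1.71 ± 0.13, adjusted p = 1.0e-05). An embryo gene limit of 300 CPM changed both classes, since spots at or above it then counted as embryo-gated. It set 29 trophoblast-marker spots against 38 embryo-gated spots in replicates 1 and 2, and 41 against 43 in replicate 4. Under that limit Hbb-bs, Mmp9 and Timp3 were no longer called. The part of decidual RNA and blood in these differences was not tested.

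Genes of the embryo were lower, in the direction that the embryo gate itself sets, so their counts are given only as a description. The 12 tested visceral endoderm genes were all lower, Ttr with 37.8 and 63.6 CPM against 818 and 1092 CPM and Rbp4 with 31.5 and 41.4 CPM against 786 and 747 CPM. T, the Brachyury gene of early mesoderm, had 3.15 and 1.51 CPM against 74.4 and 66.8 CPM. Bex1, Bex2, Bex3 and Bex4, X-linked adaptor protein genes, were also lower, Bex4 with 69.4 and 46.9 CPM against 1052 and 756 CPM (log2 fold change -3.82 ± 0.21, adjusted p = 7.7e-07). Of 19 cell cycle genes 11 were lower and 2 higher (median -1.06), Top2a with 44.1 and 46.4 CPM in trophoblast-marker spots and 213 and 178 CPM in embryo-gated spots (log2 fold change -1.87 ± 0.27, adjusted p = 6.2e-04). The Y-linked gene Eif2s3y, given as a level only, had 12.6 and 12.1 CPM against 42.5 and 39.4 CPM.

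Differences inside the trophoblast-marker spots were examined by setting Prl3d1-led spots against the others in replicates 3 and 4 (11 against 31 and 17 against 36), the libraries that held both kinds. Values stand in that order. Of 7132 genes tested 3.53% were called, 2.55% higher and 0.981% lower in Prl3d1-led spots. Without library as a block in the model 15 genes were called, against 252 with it, DESeq2 called 54, and the genes called without the block included Jaml, Kcnk5, Prl7d1 and Prl2a1. The direction was the same in both libraries for 245 of the 252 called genes. This is no separate support, since the calls were made on these same 2 libraries. With 2 libraries none could be left out. Kcnk5, Ascl2, Prl7c1 and Prl7d1 passed the count filter only through the kind of spot in which they were high. They are given without p-values.

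Of 8 tested genes of stem cells and ectoplacental cone 2 were lower in Prl3d1-led spots, Ascl2 and Tpbpa, and none was higher. Ascl2 had 3.24 and 10.04 CPM in Prl3d1-led spots and 54.4 and 195 CPM in the other trophoblast-marker spots (log2 fold change -4.15 ± 0.38). Tpbpa had 9.72 and 73.6 CPM against 44.2 and 295 CPM (log2 fold change -1.94 ± 0.26, adjusted p = 1.6e-06). Both libraries showed the same order, at higher levels in replicate 4. The prolactin family split, with 3 higher and 4 lower of 11 tested, leaving out the near-copies of Prl3d1, the gene that defines these spots. On the lower side were Prl7c1 (-4.59 ± 0.47), Prl7d1 (-3.99 ± 0.40), Prl2a1 and Prl2c5 (-1.84 ± 0.22). Prl7c1 had 0 and 6.70 CPM against 21.5 and 164 CPM, and Prl7d1 had 3.24 and 8.37 CPM against 78.3 and 129.9 CPM. Prl2a1 had 152 and 80.3 CPM against 521 and 749 CPM (log2 fold change -2.47 ± 0.24, adjusted p = 1.8e-09). On the higher side Prl7a1, not called when the marker threshold was lowered to 500 CPM, had 2842 and 1469.6 CPM against 1370.0 and 675 CPM (log2 fold change 1.15 ± 0.16, adjusted p = 2.6e-06) and Prl2c3 had 81.0 and 43.5 CPM against 20.4 and 3.61 CPM (log2 fold change 2.60 ± 0.40, adjusted p = 1.8e-05). Prl8a1 was higher as well (1.57 ± 0.34).

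The imprinted genes Cdkn1c (-1.39 ± 0.21), Phlda2 (-1.11 ± 0.22) and Peg10 (-1.46 ± 0.30) were lower in Prl3d1-led spots, and so were Slc2a1, with 136 and 164 CPM against 290.3 and 689 CPM (log2 fold change -1.61 ± 0.21, adjusted p = 1.6e-06), and Ceacam9 (-1.98 ± 0.42). Jaml, coding for a junctional adhesion molecule, had 469.8 and 497 CPM against 30.6 and 55.6 CPM (log2 fold change 3.53 ± 0.22, adjusted p = 4.8e-14). This was the largest rise among the genes named by size. The potassium channel gene Kcnk5 had 149 and 92.1 CPM against 9.07 and 12.3 CPM (log2 fold change 3.41 ± 0.32). Mmp9 had 868 and 1548 CPM against 406 and 615 CPM (log2 fold change 1.28 ± 0.17, adjusted p = 1.5e-06), Timp3 had 444 and 2669.8 CPM against 201 and 658 CPM (log2 fold change 1.70 ± 0.19, adjusted p = 6.8e-08), and Cts7 had 1066 and 2238 CPM against 445 and 1237 CPM (log2 fold change 1.11 ± 0.16, adjusted p = 1.1e-05). Ovol2, a transcription factor gene known to act in trophoblast differentiation, was higher too (2.82 ± 0.60).

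Maternal RNA also differed between the 2 kinds of trophoblast-marker spot. The decidual genes Prl8a2, with 9202 and 19863 CPM in Prl3d1-led spots and 6848 and 6399 CPM in the others (log2 fold change 1.09 ± 0.17, adjusted p = 3.4e-05), Prl3c1 (3.24 ± 0.35) and Erv3 (1.63 ± 0.26) were higher in Prl3d1-led spots, 3 of 17 tested decidual genes. Of 6 natural killer cell genes tested 5 were lower, Gzmd with 38.9 and 10.04 CPM against 211 and 36.8 CPM (log2 fold change -2.20 ± 0.32, adjusted p = 9.0e-06), and Il2rb was higher (2.01 ± 0.40). The part of these maternal cells in the other differences was not tested. Y-linked transcripts stood at 22.7 CPM (9.12 to 46.7) and 26.8 CPM (15.3 to 43.5) in Prl3d1-led spots, against 28.4 CPM (18.3 to 41.9) and 17.3 CPM (11.1 to 25.8) in the others, with overlapping intervals in each library.

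Replicates 1 and 2, whose 36 spots were all Prl3d1-led, did not enter that test. The trophoblast-marker spots of that library had 659 CPM of Jaml, 205 CPM of Kcnk5, 9.46 CPM of Prl7d1 and 75.7 CPM of Prl2a1, and no UMI of Ascl2 or Prl7c1. Cts7 stood there at 1230 CPM and Tpbpa at 56.8 CPM, both within the range of Prl3d1-led spots as well as that of the other spots in replicates 3 and 4. No test sets this library against the others.

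**Figure D5:**
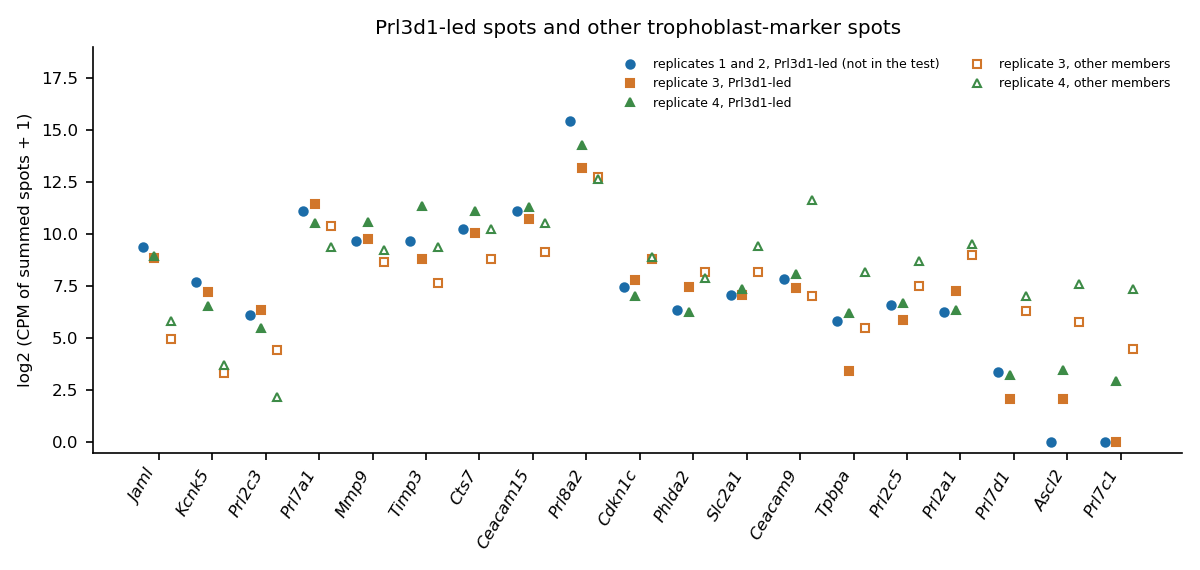
Level of 19 genes as log2 of CPM + 1 in Prl3d1-led spots (filled) and other trophoblast-marker spots (open, right). Replicates 1 and 2 (circles) held only Prl3d1-led spots and were not part of the test. Jaml and Kcnk5 lay higher, and Ascl2, Prl7d1 and Prl7c1 lower, in the Prl3d1-led spots of both libraries.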

How the data were processed

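The deposited matrices hold counts of UMIs per gene and spot, and their file headers name Space Ranger 1.2.2 as the program the authors used. Cell Ranger and the genome build mm10 are named too, per the submitters' processing notes. For alignment settings and the gene annotation the sources used here give nothing, and gene coordinates are those of GRCm38. Spots under 1000 UMIs (39) were left out. Counts of the spots of a class were summed per library, and a class with fewer than 10 spots in a library was not summed. Sums were compared with edgeR 4.0.16 (R 4.3.3), using TMM scaling, its expression filter, library as a block and the quasi-likelihood test with Benjamini-Hochberg adjustment over all genes tested. A gene was called where the adjusted p was below 0.05 and the log2 fold change was 1 or more in size. The 9 genes of the rule were left out of the fits. Levels are CPM of the sums, with 3 counts as the limit for a gene at 0.

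The members and gene lists were chosen with earlier results of these data known. Genes were named as the 20 largest rises and 8 largest falls (8 and 8 in the other comparisons) with the same sign in every library, the 4 called members of each list with the smallest p and the 2 most counted. Further list members are named to complete a list's count and were chosen after their values were seen. Library is a block because both classes of spots come from the same sections. The labels call the libraries biological replicates, and p-values rest on the spread between them. Alternatives were DESeq2 1.42.0, other scaling and filters, other thresholds, thinning to 3000 UMIs (seed 7) and leaving out each library. Python 3.11.15 with numpy 2.4.6, scipy 1.17.1, pandas 2.3.3 and matplotlib 3.10.9 was used for sums, intervals and plots.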

Additional observations from a re-analysis of the deposited data

How the results depend on the processing

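Against other spots 3407 genes were called. Dropping the minimum fold change gave 5396, and thinning every spot to 3000 UMIs gave 1530. Leaving out a library gave 2634 to 3216. Under DESeq2 2738 of the 3407 calls remained, and no gene called under both had the opposite sign. Against embryo-gated spots 1330 genes were called. DESeq2 gave 300, an embryo gene limit of 300 CPM for both classes 647, no replicate block 806 and thinning 413. The higher share of these calls was 58.3%, against 48.4% with the embryo limit and 68.7% without a filter on low counts. Between Prl3d1-led and other trophoblast-marker spots 252 genes were called, and no minimum fold change gave 391, DESeq2 54, the embryo limit 130 and no replicate block 15, with 72.2% of calls higher with the block and 86.7% without it. With a marker threshold of 3000 CPM the share of trophoblast-marker spots was 1.18% in replicates 1 and 2 and 2.03% in replicate 4. The filter on low counts was the setting that moved the median of all genes most, by -0.37 against other spots, 0.15 against embryo-gated spots and -0.11 between Prl3d1-led and other spots.

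With the embryo gene limit of 300 CPM the log2 fold change against other spots changed sign for Ttr (-0.61), Cldn6 (-0.20) and Apom (-0.039), that against embryo-gated spots for Col1a1 (-1.75) and Col1a2 (-2.42), and that between Prl3d1-led and other spots for Cited1 (0.31). With thinning it changed sign against other spots for Mmp11 (-0.22) and Lcn2 (0.10). The cause of these changes was not tested. Leaving out a library was not run where 1 library would remain, and neither was the comparison with embryo-gated spots at 5000 UMIs or more, nor that of Prl3d1-led spots at 3000 marker CPM or thinned, which left too few spots. In the shallow library of replicates 1 and 2 genes under 9.46 CPM could go undetected.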

Other observations

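The remaining lists gave these counts against other spots, where 9.52% of genes were higher and 16.4% lower. Of 12 visceral endoderm genes 5 were higher, among them Ttr, Apoa4 and Amn, and 2 lower (median 1.12). The rise of Ttr did not hold under the embryo gene limit of 300 CPM. Of 7 epiblast and early mesoderm genes 2 were higher and none lower (median 1.47). Its list summed to 170, 64.7 and 65.1 CPM against 14.7, 8.93 and 21.4 CPM. Of 10 interferon response genes 2 were lower, Ifi27l2a and Gbp3, and none higher (median -0.15). Bst2, an antiviral membrane protein gene, had 287, 543 and 321 CPM in trophoblast-marker spots and 169, 294 and 261 CPM in other spots (log2 fold change 0.69 ± 0.15, adjusted p = 9.7e-04). Of 11 genes of antigen presentation and complement control 5 were lower (median -0.95), among them the class II genes H2-Aa (-2.52 ± 0.34), H2-Ab1 (-2.22 ± 0.26) and Cd74 (-1.87 ± 0.20). Tdo2, whose enzyme degrades tryptophan, had 142, 126 and 224 CPM against 1673, 1350.0 and 1243 CPM (log2 fold change -3.05 ± 0.20, adjusted p = 1.6e-10). Of 14 glycolysis and hypoxia genes 5 were higher and 2 lower (median 0.32). Egln3, an oxygen-sensing hydroxylase gene, had 34.7, 42.0 and 73.1 CPM against 3.38, 7.63 and 13.4 CPM (log2 fold change 2.64 ± 0.21, adjusted p = 3.6e-09), and Ldhb, a lactate dehydrogenase gene, had 37.8, 10.9 and 22.2 CPM against 118, 80.4 and 99.96 CPM (log2 fold change -2.20 ± 0.21, adjusted p = 3.8e-08).

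Parietal endoderm lines the yolk sac next to giant cells. Of 16 of its genes 4 were higher and 5 lower (median 0.12), with the basement membrane gene Lama1 at 195, 35.3 and 76.7 CPM against 17.1, 9.05 and 16.7 CPM (log2 fold change 2.58 ± 0.22, adjusted p = 7.8e-09) and the receptor gene Pth1r at 53.6, 8.40 and 26.2 CPM against 12.2, 7.86 and 10.4 CPM (log2 fold change 1.29 ± 0.30, adjusted p = 0.0016). Sparc, a matrix protein gene that decidua also expresses, had 627, 623 and 704 CPM against 2147, 2299 and 2388 CPM (log2 fold change -1.77 ± 0.15, adjusted p = 4.4e-09). Lama1 was the clearest of the 3 and higher in every library.

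Across trophoblast-marker spots thinned to 3000 UMIs (35, 42 and 53 spots), the genes whose counts followed the summed markers most closely among 2073 were Adm (mean Spearman rho 0.48), Plet1 (0.44), Hmox1 (0.39), Prl7a1 (0.38), Rps21 (0.35), Hspe1 (0.34), Prl5a1 (0.33), Rps27l (0.33), Rala (0.31) and Etfb (0.31). This is a description, since spots of a library share its depth and tissue. For Adm the rho was 0.32, 0.62 and 0.50 in the 3 libraries, and for Rps27l 0.41, 0.52 and 0.052.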
